A study of Mus musculus with 61 samples.

Results

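Endothelial addressins, L-selectin ligand genes and related genes, 9 in all, were followed across both exocrine glands of the NOD mouse. They were chosen by name, as the genes whose symbols the array annotation pairs singly with a probe set: Glycam1, Cd34, Fut7, Chst2, Selp, Sele, Vcam1, Icam1 and Enpep. These 9 genes had 15 probe sets, of 34958 probe sets with 1 symbol for 18194 genes. NOD is an inbred strain in which lymphocytes gather in the lacrimal and salivary glands, a model of Sjogren's syndrome. Whole-gland RNA was measured on 61 Affymetrix mouse genome arrays, 31 of lacrimal and 30 of salivary gland. Untreated mice were sampled at weeks 8, 12, 14 and 16 of age, and all weeks below are weeks of age. Treated mice received LTBR-Ig (mLTBR-mIgG1, which the labels spell mLTBD-mIgG1), a soluble lymphotoxin-beta receptor joined to mouse IgG1, or the control mouse IgG1 antibody MOPC-21, and were sampled at weeks 12 and 16. The study's methods give one intraperitoneal injection a week, and place the start of lacrimal treatment at week 8 in males. The labels give no sex. Each of the 16 tissue, week and treatment groups held 4 arrays, except untreated lacrimal glands at week 12 (3) and LTBR-Ig salivary glands at week 12 (2). Per the methods, each lacrimal sample combined both glands of a mouse, and salivary samples combined the submandibular, salivary and parotid glands with the cervical lymph nodes dissected away.

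High endothelial venules (HEV) are the vessels through which lymphocytes leave the blood in lymph nodes, and similar vessels form in chronically inflamed glands. Lymphocytes first roll on L-selectin ligands, the sulfated and fucosylated sugars that HEV carry on mucin-like scaffolds and that make up the peripheral node addressin (PNAd). They then arrest and cross by binding integrin ligands such as VCAM-1 and ICAM-1. Lymphotoxin signalling through its receptor maintains HEV in lymph nodes, which is the pathway that LTBR-Ig blocks.

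Promoters of 3 members that fell under treatment are given first, from RefSeq (GRCm38.p6), as 250 bases before and 50 bases after the annotated start, so that the start regions of an HEV scaffold, an adhesion ligand and an ectoenzyme can be read beside their values. Glycam1 lies on chr15:103562759-103565081 (minus strand) with its window at chr15:103565032-103565331, Icam1 on chr9:21015940-21028814 (plus strand) with its window at chr9:21015690-21015989, and Enpep on chr3:129269177-129332749 (minus strand) with its window at chr3:129332700-129332999. The windows are written 5′ to 3′ on the strand of the gene, and capitals mark matches to the kappa-B letters GGNNNTTCC on either strand.
Glycam1: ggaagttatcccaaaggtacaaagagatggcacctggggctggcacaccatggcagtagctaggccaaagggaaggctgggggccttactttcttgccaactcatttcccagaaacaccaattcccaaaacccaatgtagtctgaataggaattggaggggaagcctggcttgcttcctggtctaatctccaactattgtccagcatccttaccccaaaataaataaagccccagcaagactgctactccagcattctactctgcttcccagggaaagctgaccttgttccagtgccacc
Icam1: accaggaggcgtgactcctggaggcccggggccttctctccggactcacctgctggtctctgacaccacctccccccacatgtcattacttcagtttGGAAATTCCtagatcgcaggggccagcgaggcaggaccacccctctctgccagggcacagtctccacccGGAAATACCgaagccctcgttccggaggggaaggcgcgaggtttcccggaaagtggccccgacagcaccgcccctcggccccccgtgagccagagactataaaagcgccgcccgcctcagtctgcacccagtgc
Enpep: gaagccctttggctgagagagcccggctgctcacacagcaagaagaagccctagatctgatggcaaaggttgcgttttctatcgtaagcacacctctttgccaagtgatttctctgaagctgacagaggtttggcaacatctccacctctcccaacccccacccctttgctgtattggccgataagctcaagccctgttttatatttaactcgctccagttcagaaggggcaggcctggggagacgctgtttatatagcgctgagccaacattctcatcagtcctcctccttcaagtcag
The Icam1 window held GGAAATTCC at positions -153 to -145, which matches on both strands and overlaps itself, and GGAAATACC at -84 to -76, which matches on the minus strand. Among the other members, Sele held GGATATTCC at -145 to -137 and Selp held GGAAAGGCC at -14 to -6. No match lay in the windows of Glycam1, Cd34, Fut7, Chst2 or Enpep. Windows with GGNNNTTCC made up 18.5% of 32851 RefSeq windows of this length. The form with 1 more free base between the GG and the TTCC, found in 18.2% of them, and GGAGANTTG, found in 1.18%, matched none of the 8 members that had a window. Vcam1 had no window in the table used here. A match is a description of letters and was not read as a binding site.

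All levels below are log2 GCRMA values, on which 1 unit is a doubling, and no probe set's level is set against another's. A value of 4 was used as a floor, and 37.3% to 41.4% of probe sets lay above it on each array. A probe set was tested in a gland if it exceeded the floor on at least 2 arrays of 1 group, and it was called when limma gave a fold of 2 or more with a Benjamini-Hochberg adjusted p under 0.05 over all probe sets tested. Pax6, a transcription factor of eye-associated epithelium, separated the tissue labels, at 8.36 to 10.35 in lacrimal and 2.89 to 3.69 in salivary arrays. Amy1, salivary amylase, did not, at 2.84 to 15.31 in lacrimal (median 3.77) and 4.58 to 14.88 in salivary arrays (median 7.51). In 8 lacrimal arrays Amy1 lay above 8. These arrays were replicate 2 of untreated week 12, replicates 1 and 2 of untreated week 16, replicate 1 of MOPC-21 week 12, replicates 1 and 2 of LTBR-Ig week 12, and replicates 3 and 4 of LTBR-Ig week 16. Of the 18 endothelial markers listed, Plvap (median 7.26), Vwf (6.34), Eng (6.23), Pecam1 (5.95), Egfl7 (5.38), Ptprb (4.83) and Esam (4.75) exceeded the floor on all 31 lacrimal arrays, and Cdh5, Tie1, Cldn5, Robo4, Erg and Sox17 did so on none. In bulk RNA, fewer cells of a type and less RNA per cell cannot be told apart.

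The members fell into genes with a clear signal and genes near the floor. Cd34, Vcam1, Icam1 and Enpep were tested in both glands, Glycam1, Chst2 and Selp in the lacrimal gland only, and Fut7 and Sele in neither. Fut7, the fucosyltransferase that completes selectin ligands in leukocytes and HEV, read 2.39 to 2.44 in lacrimal and 2.38 to 2.48 in salivary arrays. Sele, E-selectin of activated endothelium, read 2.65 to 3.09 and 2.62 to 2.76. Neither gene exceeded the floor on any of the 61 arrays, which bounds their level and gives no comparison. The remaining probe sets of Chst2 and Selp lay below the floor as well, at 2.15 to 2.35 and 2.61 to 2.73 for Chst2 and at 2.10 to 2.2 and 2.39 to 2.82 for Selp in lacrimal arrays.

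**Figure D1:**
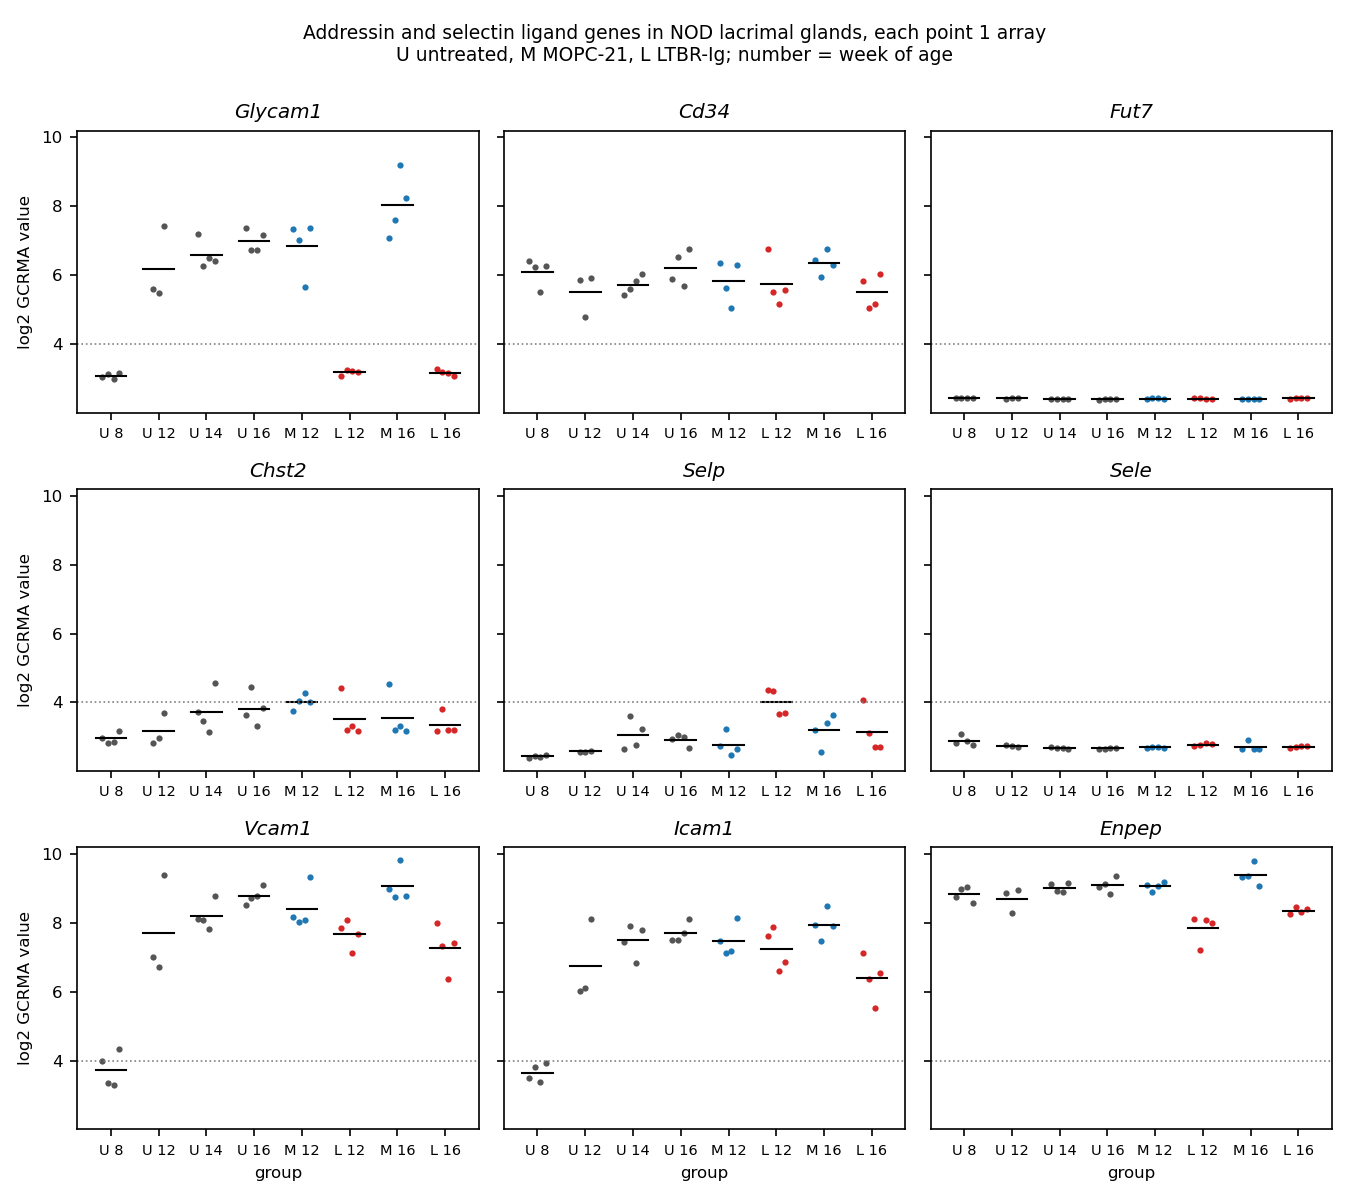
Log2 level of each of the 9 genes (vertical axes) on every lacrimal array (points), for untreated mice at weeks 8 to 16 (U8, U12, U14, U16) and for MOPC-21 (M) and LTBR-Ig (L) at weeks 12 and 16; bars are group means and the dotted line is the floor of 4. Glycam1 sits near 3 in U8, L12 and L16, Enpep is lowest in L12 and L16, and Fut7 and Sele stay below the floor.

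The untreated course answers when these genes appear as the lacrimal gland fills with lymphocytes. Between weeks 8 and 12, 3 of the 7 members tested rose (Glycam1, Vcam1 and Icam1) and none fell, where 6.07% of all 20077 probe sets rose and 3.61% fell. Against week 8, the same 3 members were called at week 16, where 12.1% of probe sets rose and 4.49% fell. The median change over the 7 members at week 16 was 0.85 on the log2 scale, and over all genes -0.08. These are the scaffold and both integrin ligands, while Chst2, Selp, Cd34 and Enpep did not pass. Of the leukocyte genes listed, 10 of 11 tested were called higher at week 12 and all 11 at week 16, beside the same shares. Their median changes were 4.05 and 5.33, and their part in the rise of the members was not tested.

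Glycam1, a secreted mucin-like scaffold that HEV decorate with L-selectin ligands, read 3.04, 3.13, 2.98 and 3.17 in the untreated lacrimal glands at week 8. At week 12 the 3 arrays read 5.60, 5.50 and 7.42, at week 14 the 4 arrays read 7.19, 6.27, 6.5 and 6.40, and at week 16 they read 7.36, 6.72, 6.75 and 7.16. Every array from week 12 on lay above every week 8 array, as 13.6% of probe sets did at week 12 and 23.8% at week 16, and the later weeks overlapped each other. Since all 4 week 8 arrays lay below the floor, the rise to week 16 was at least 7.99-fold, counted from the floor (limma adjusted p = 7.6e-09).

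Vcam1, the ligand of the integrin alpha-4-beta-1, read 3.99, 3.35, 3.29 and 4.33 at week 8 and 8.53, 8.73, 8.78 and 9.10 at week 16 on its brightest probe set. Icam1, the ligand of LFA-1, read 3.49, 3.81, 3.39 and 3.93 at week 8 and 7.51, 7.51, 7.70 and 8.10 at week 16. The 2 weeks did not overlap for either gene. Vcam1, with 3 of 4 week 8 arrays below the floor, had a fitted log2 change of 5.04 (SE 0.43, adjusted p = 6.3e-10). Since its week 8 mean lay below the floor, this value is not a size, and it ran from 3.43 to 5.20 under 9 other settings. Icam1, below the floor on all 4, rose at least 13-fold (adjusted p = 3.3e-09). At week 12 replicate 4 stood above the other untreated arrays for Glycam1 (7.42), Vcam1 (9.4 against 7.01 and 6.72) and Icam1 (8.12 against 6.03 and 6.12), and the leukocyte marker Ptprc, which encodes CD45, was also highest on that array (11.81 against 10.03 and 9.88).

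The other members were not called. Chst2, a sulfotransferase that adds the 6-sulfate of L-selectin ligands, read 2.96, 2.82, 2.87 and 3.18 at week 8 and 3.62, 4.44, 3.32 and 3.84 at week 16, and its fitted difference (adjusted p = 0.026) missed the fold of 2. It was called without replicate 3 of week 16 (adjusted p = 0.016). Both group means lay below the floor, so no size is given and no rise is read. Chst2 was tested only through MOPC-21 week 12, where 3 of 4 arrays exceeded the floor. Selp, P-selectin of platelets and endothelium, read 2.69 to 3.07 at week 16 and 2.39 to 2.48 at week 8. Every week 16 array was higher, as for 23.8% of probe sets. All 8 arrays lay below the floor, so no rise is read from this (limma adjusted p = 0.11). Cd34, a sialomucin of capillary and HEV endothelium, differed by 0.13 (95% interval -0.57 to 0.82). Enpep, aminopeptidase A, an ectoenzyme that trims angiotensin II and also marks early B-lineage cells and some epithelia, differed by 0.25 (95% interval -0.10 to 0.61).

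**Figure D2:**
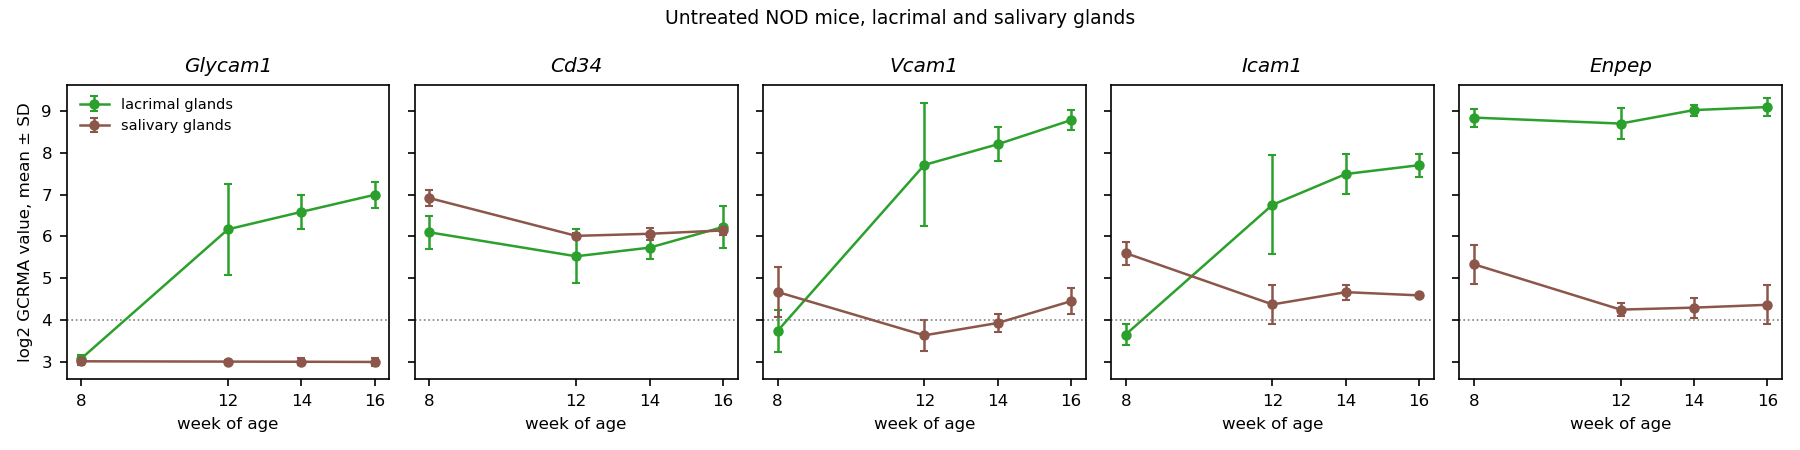
Mean ± SD of the log2 level of Glycam1, Cd34, Vcam1, Icam1 and Enpep in untreated mice by week (horizontal axis), in lacrimal and salivary glands (n = 4 arrays, 3 for lacrimal week 12); the dotted line is the floor of 4. Lacrimal Glycam1, Vcam1 and Icam1 lie far higher at week 16 than at week 8, salivary Glycam1 stays below the floor, and salivary Icam1, Cd34 and Enpep are highest at week 8.

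Treatment was compared with MOPC-21 first, and the question was which members LTBR-Ig lowered at week 16. Of the 7 members tested 4 fell, Glycam1, Vcam1, Icam1 and Enpep, and none rose, against 5.54% of all probe sets lower and 0.339% higher. The same 4 were the members whose groups did not overlap, where 12.7% of probe sets had every LTBR-Ig array below every MOPC-21 array. The median change over the 7 members was -1.02, and over all genes -0.03. Against untreated mice 3 fell, Glycam1, Vcam1 and Icam1, where 3.77% of probe sets were lower, with a median of -0.74. Both comparisons use the same LTBR-Ig arrays and so are not independent of each other.

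Glycam1 on the MOPC-21 arrays at week 16 read 7.10, 7.6, 9.19 and 8.25. With LTBR-Ig it read 3.28, 3.19, 3.18 and 3.07, all below the floor. Since the treated arrays lay below the floor, the fall was at least 16.4-fold against MOPC-21 (limma adjusted p = 1.8e-08) and at least 7.99-fold against untreated mice (adjusted p = 3.6e-06), both counted from the floor. Ordered by mean, the lacrimal groups ran from untreated week 8 (3.08 ± 0.09, SD, n = 4) through LTBR-Ig week 16 (3.18 ± 0.09, n = 4) and LTBR-Ig week 12 (3.19 ± 0.07, n = 4) to untreated week 12 (6.17 ± 1.08, n = 3), untreated week 14 (6.59 ± 0.41, n = 4), MOPC-21 week 12 (6.85 ± 0.82, n = 4), untreated week 16 (7.0 ± 0.31, n = 4) and MOPC-21 week 16 (8.04 ± 0.90, n = 4). Neighbours in this order overlapped except at the step between LTBR-Ig week 12 and untreated week 12. The 3 groups below that step lay under the floor on every array, so their order carries no information, and the fitted log2 changes given for Glycam1 under other settings are not sizes of the fall.

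Vcam1 on its brightest probe set read 8.97, 8.76, 9.82 and 8.77 with MOPC-21 and 8.00, 7.34, 6.37 and 7.41 with LTBR-Ig at week 16. Its other probe sets gave smaller changes. One of them read 6.75, 6.0, 7.78 and 6.88 with MOPC-21 and 6.17, 5.71, 4.68 and 5.88 with LTBR-Ig, which overlapped, and fell short of the threshold at -1.24 (SE 0.46, adjusted p = 0.051). The third read 5.37, 5.75, 6.31 and 5.37 against 4.89, 4.47, 4.31 and 4.64, with no overlap, and fell by 1.12 (SE 0.29, adjusted p = 0.012). The 3 probe sets therefore shared the direction, and the log2 change of the brightest was -1.80 (95% interval -2.68 to -0.93).

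**Figure D3:**
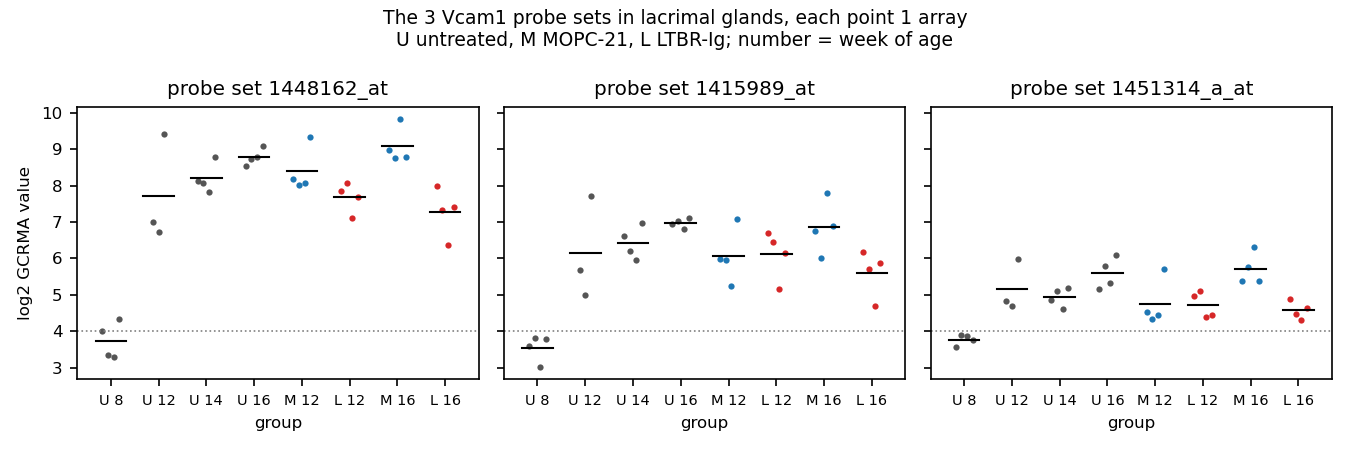
Log2 level of the 3 Vcam1 probe sets (panels) on every lacrimal array (points), by group; bars are group means and the dotted line is the floor of 4. All 3 are lowest in untreated mice at week 8, and at week 16 the LTBR-Ig mean lies below the MOPC-21 mean by 1.80, 1.24 and 1.12.

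Icam1 at week 16 read 7.92, 7.47, 8.48 and 7.90 with MOPC-21 and 7.12, 6.36, 5.53 and 6.54 with LTBR-Ig. The groups did not overlap, and the change was -1.56 (SE 0.38, limma adjusted p = 0.010). Both integrin ligands still lay above their untreated week 8 level in LTBR-Ig glands at week 16, where 6.06% of probe sets were higher. The fitted log2 difference was 3.53 for Vcam1 (SE 0.43, adjusted p = 5.0e-07), and Icam1 was at least 5.23-fold higher (adjusted p = 3.8e-06). The Vcam1 week 8 mean lay below the floor, so 3.53 is not a size, and the fitted difference ran from 2.13 to 3.92 under 9 other settings.

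Enpep fell as well, with little spread among treated arrays (SD 0.09, n = 4). It read 9.32, 9.35, 9.79 and 9.06 with MOPC-21 and 8.26, 8.46, 8.32 and 8.39 with LTBR-Ig at week 16. No array of either group crossed into the other, and the change of -1.02 (SE 0.17, limma adjusted p = 0.0032) was just past the fold of 2. Against untreated mice (9.04, 9.14, 8.84 and 9.36) the groups did not overlap either, as 14.2% of probe sets lay lower in this way, and the change of -0.74 (SE 0.17, adjusted p = 0.018) missed the fold. Enpep was not called higher between untreated weeks 8 and 16, and treated glands lay below the untreated week 8 level (8.75, 8.99, 9.05 and 8.58) on every array (24.4% of probe sets lay lower so), by 0.49 (SE 0.17, adjusted p = 0.030), short of the fold of 2.

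The 3 members that did not pass at week 16 were Cd34, Chst2 and Selp. Cd34 read 6.45, 5.96, 6.75 and 6.30 with MOPC-21 and 5.83, 5.05, 5.16 and 6.02 with LTBR-Ig, which overlapped, with a change of -0.85 (95% interval -1.55 to -0.16, adjusted p = 0.066). Chst2 read 4.52, 3.21, 3.32 and 3.17 with MOPC-21 and 3.18, 3.81, 3.21 and 3.2 with LTBR-Ig. Chst2 and Selp each exceeded the floor on 1 of these 8 arrays, so their values set no limit on a change.

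Several calls turned on single arrays. Replicate 3 of MOPC-21 had the highest value of its group for Glycam1, Cd34, Vcam1, Icam1, Enpep and Ptprc (12.58), and replicate 3 of LTBR-Ig had the lowest for Vcam1, Icam1 and Ptprc (9.29) and an Amy1 of 15.08. Without MOPC-21 replicate 3, Vcam1 changed by -1.56 (limma adjusted p = 0.069), Icam1 by -1.38 (adjusted p = 0.072) and Enpep by -0.89 (adjusted p = 0.035), and none of the 3 was called. Leaving out LTBR-Ig replicate 3 gave -1.50 for Vcam1 (adjusted p = 0.051) and -1.27 for Icam1 (adjusted p = 0.055), and leaving out LTBR-Ig replicate 1 gave -0.99 for Enpep, just under the fold. Against untreated mice, Vcam1 and Icam1 lost their calls without LTBR-Ig replicate 2, 3 or 4 or untreated replicate 2, 3 or 4, with adjusted p from 0.051 to 0.15. Glycam1 was called in all 8 such fits of each comparison, with changes of -5.17 to -4.47 against MOPC-21 and -3.91 to -3.70 against untreated mice.

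The leukocyte markers moved with these members. All 11 leukocyte genes tested, of 13 listed, were called lower with LTBR-Ig than with MOPC-21 at week 16, where 5.54% of all probe sets were. Their median change was -1.85, beside -0.03 over all genes. The largest falls were in the B cell genes Cd79a (-2.21), Cd79b (-2.08) and Ms4a1 (-2.02) and in Coro1a (-1.93). The log2 of the summed level of the list ranged from 12.99 to 14.49 with MOPC-21 and from 10.94 to 13.11 with LTBR-Ig. Salivary gland products moved the other way, with 8 of 10 called higher, where 0.339% of all probe sets were. They were led by Mucl1 (6.86), Crisp3 (6.47), Dcpp1 (6.23) and Prol1 (4.76). Their median change was 4.80, and their summed levels were 8.35 to 11.58 with MOPC-21 and 14.02 to 16.35 with LTBR-Ig. With the mean of the leukocyte list as a covariate, chosen after seeing the data, Glycam1 was still called (fitted change -3.90), whereas Vcam1 changed by -0.21 (adjusted p = 0.86), Icam1 by -0.10 (adjusted p = 0.93) and Enpep by -0.91 (adjusted p = 0.091). Without the 8 arrays with Amy1 above 8, which left 2 LTBR-Ig arrays at week 16, Glycam1 was called (fitted change -4.80, adjusted p = 0.00046), and Vcam1 at -1.41 (adjusted p = 0.25), Icam1 at -1.21 (adjusted p = 0.24) and Enpep at -1.02 (adjusted p = 0.054) did not pass. The part of infiltrating cells or of salivary tissue in the changes of Vcam1, Icam1 and Enpep was not tested.

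**Figure D4:**
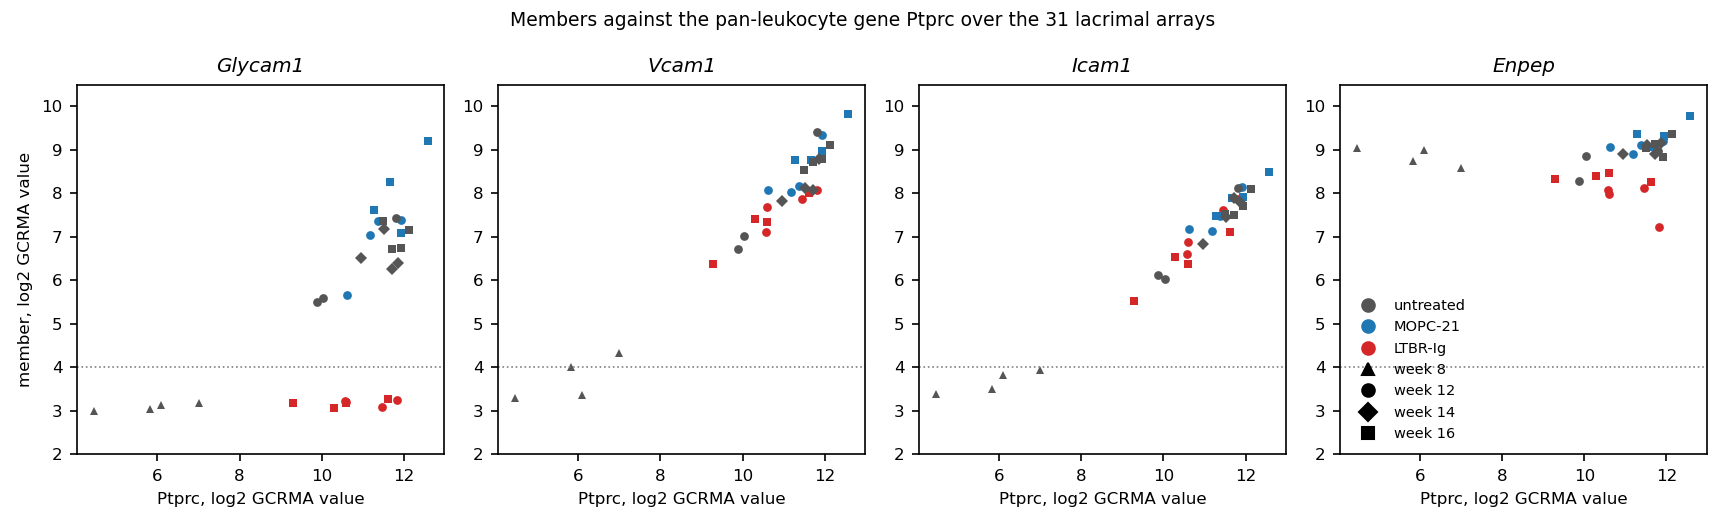
Log2 level of Glycam1, Vcam1, Icam1 and Enpep (vertical axes) against Ptprc, the leukocyte marker CD45 (horizontal axes), on the 31 lacrimal arrays, with treatment shown by colour and week by marker shape. Vcam1 and Icam1 follow Ptprc closely (Pearson r 0.97 and 0.98), Glycam1 does so less (0.62) with the LTBR-Ig arrays low at high Ptprc, and Enpep hardly does (0.11).

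How the members vary together over the 31 lacrimal arrays is given as a description, since the arrays share weeks and treatments. Vcam1 and Icam1 followed each other (Pearson r 0.98, Spearman rho 0.95) and both followed Ptprc (r 0.97 and 0.98, rho 0.94 and 0.95). Glycam1 followed Ptprc less closely (r 0.62, rho 0.71), and its correlation with Enpep was 0.75 (rho 0.69). Enpep and Ptprc had r 0.11 and rho 0.49. Among 10120 other genes, those most like Glycam1 were Pla2g2d (r 0.93), Serpina1b (0.92), Ccdc88a (0.88), Reg3g (0.87) and Parm1 (0.87). Ncf4 (0.997), Srgn (0.995) and Arhgdib (0.993) were most like Icam1, and Srgn (0.987), S100a4 (0.986) and Dock10 (0.985) most like Vcam1. The genes most like Enpep were Btbd1 (0.85), Cpm (0.82) and Pcgf6 (0.82).

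At week 12, 2 of the 7 members fell against MOPC-21, Glycam1 and Enpep, where 0.0349% of probe sets, 7 of 20077, were lower and 0.0149% were higher. The same 2 genes were the members whose treated arrays all lay below the controls, where 3.3% of probe sets did. None of the leukocyte, counter-receptor, lymphotoxin, endothelial or salivary genes listed was called at week 12. The leukocyte list had a median change of -0.30 against MOPC-21 and 0.46 against untreated mice, and its summed level ranged from 12.29 to 13.78 with MOPC-21 and from 12.11 to 13.48 with LTBR-Ig. The salivary gland products had medians of 2.12 and 1.44, with summed levels of 10.62 to 14.96 with MOPC-21 and 11.68 to 16.92 with LTBR-Ig, and their part in the week 12 results was not tested. Against untreated mice at week 12, Glycam1 was the 1 probe set called of 20077 (0.00498%).

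Glycam1 at week 12 read 7.35, 7.03, 5.65 and 7.39 with MOPC-21 and 3.09, 3.24, 3.22 and 3.2 with LTBR-Ig. Already after the first weeks of injections the treated arrays lay below the floor, a fall of at least 7.23-fold against MOPC-21 (limma adjusted p = 8.5e-06) and of at least 4.51-fold against untreated mice (adjusted p = 0.0021). The latter did not pass with only the 2 groups in the fit (adjusted p = 0.49) or without the arrays with Amy1 above 8 (-3.25, adjusted p = 0.14). Enpep read 9.10, 8.89, 9.06 and 9.20 with MOPC-21, and 8.12, 7.21, 8.07 and 7.98 with LTBR-Ig. All 4 treated arrays lay below all 4 controls, and the change was -1.21 (SE 0.17, adjusted p = 0.0017). Against untreated mice (8.86, 8.28 and 8.96) there was again no overlap, as for 2.54% of probe sets, with -0.85 (SE 0.19, adjusted p = 0.13). With only the 2 groups compared in the fit, and so a spread estimated from fewer arrays, Enpep had an adjusted p of 0.26 against MOPC-21, and without the arrays with Amy1 above 8 it changed by -1.02 (adjusted p = 0.11).

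Vcam1 at week 12 read 8.17, 8.02, 8.07 and 9.33 with MOPC-21 and 7.86, 8.07, 7.12 and 7.68 with LTBR-Ig. Icam1 read 7.47, 7.13, 7.17 and 8.14 against 7.61, 7.87, 6.60 and 6.87. Both overlapped and neither passed, with changes of -0.72 for Vcam1 (95% interval -1.59 to 0.16) and -0.24 for Icam1 (95% interval -1.02 to 0.54), so a fall in Icam1 larger than about 2-fold lies outside the interval at this week and one of Vcam1 does not.

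Selp was the member that lay higher with LTBR-Ig at week 12. It read 2.75, 3.23, 2.47 and 2.64 with MOPC-21, 2.57, 2.57 and 2.60 in untreated mice, and 4.37, 4.32, 3.65 and 3.70 with LTBR-Ig. Every treated array exceeded every control, as 1.18% of probe sets did against MOPC-21 and 1.86% against untreated mice. Of the 4 treated arrays, 2 were above the floor. No other lacrimal group had 2 such arrays (3 of 31 in all), so Selp was tested only because this group read high. The comparisons below therefore rest on a group that also selected the gene, and no rise is concluded from their adjusted p or calls. The limma adjusted p was 0.055 against MOPC-21 and 0.071 against untreated mice. All controls lay below the floor and the LTBR-Ig mean (4.01) at it, so counted from the floor the difference was at least 1.01-fold. The comparison with MOPC-21 was called without MOPC-21 replicate 2 (adjusted p = 0.049), after quantile normalization (0.042), with the leukocyte covariate (0.0021) and with no intensity trend (0.048). The comparison with untreated mice was called without LTBR-Ig replicate 3 (0.047), without untreated replicate 4 (0.042), after quantile normalization (0.048) and with the leukocyte covariate (0.018). Of the fits that left out 1 array and still tested Selp, 1 of 6 called it against MOPC-21 and 2 of 5 against untreated mice. Both treated arrays above the floor had Amy1 above 8, and without the arrays with Amy1 above 8 Selp was not tested. At week 16 Selp read 4.06, 3.12, 2.70 and 2.71 with LTBR-Ig and 3.2, 2.56, 3.40 and 3.62 with MOPC-21, which overlapped. A change in the Selp effect between the weeks was not called.

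The change in the treatment effect between weeks 12 and 16 was tested as an interaction. No probe set of 20077 was called by limma (0%), with 3126 at an unadjusted p under 0.05. The differences were -1.09 for Vcam1 (95% interval -2.33 to 0.15), -1.32 for Icam1 (-2.42 to -0.22) and 0.19 for Enpep (-0.31 to 0.69), with adjusted p from 0.31 to 0.69. The fall of Vcam1 and Icam1 at week 16 is thus not shown to differ from that at week 12. The treated Glycam1 arrays were below the floor at both weeks, while the MOPC-21 mean was 6.85 at week 12 and 8.04 at week 16.

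MOPC-21 itself was compared with no treatment at week 16, to show what the control antibody does. No probe set was called by limma (0%), and 411 of 20077 had an unadjusted p under 0.05. Glycam1 was higher with MOPC-21 by 1.04 (95% interval 0.25 to 1.83, adjusted p = 1.0), and its ranges overlapped.

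**Figure D5:**
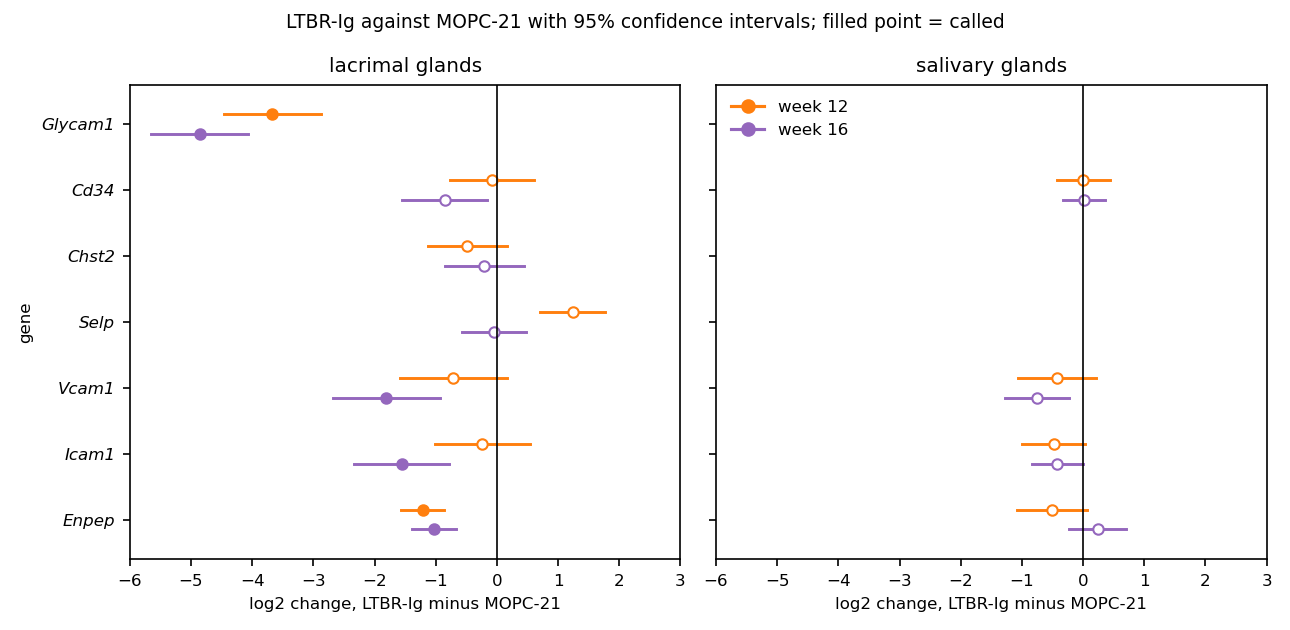
Log2 change, LTBR-Ig minus MOPC-21, with its 95% interval (horizontal axis) for each member tested, at weeks 12 and 16 in lacrimal and salivary glands; filled points were called by limma and the vertical line at 0 is no change. Glycam1 and Enpep are called at both weeks in the lacrimal gland, Vcam1 and Icam1 at week 16, and no member in the salivary gland, and the Glycam1 points rest on treated values below the floor.

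In the salivary gland 4 of the 9 members could be tested and none was called at week 16 against MOPC-21, where 0.0357% of 19617 probe sets, 7 in all, were called by limma and 1121 had an unadjusted p under 0.05. Glycam1 stayed at 2.91 to 3.18 on all 30 salivary arrays. Vcam1 read 4.17, 4.16, 4.59 and 5.01 with MOPC-21 and 3.33, 4.03, 3.77 and 3.81 with LTBR-Ig, which did not overlap (4.81% of probe sets lay lower in this way), with a change of -0.75 (95% interval -1.27 to -0.23, adjusted p = 0.55). Treated Vcam1 levels lay below the floor on 3 of 4 arrays, and its other probe sets changed by -0.30 and 0.07 with overlap. Icam1 differed by -0.42 (95% interval -0.84 to 0.00), Enpep by 0.24 (-0.23 to 0.71) and Cd34 by 0.01 (-0.34 to 0.37). At week 12, with 2 LTBR-Ig arrays, no member was called either (0.0306% of probe sets called), with changes of -0.43 for Vcam1, -0.48 for Icam1, -0.51 for Enpep and 0.00 for Cd34. Amy1 read 11.77 and 14.88 on those 2 arrays and 7.10 to 10.95 with MOPC-21, and its part was not tested.

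Whether the week 16 effect differed between the glands was tested directly. The contrast was called for Enpep, at -1.26 (SE 0.29, limma adjusted p = 0.013), where 2.61% of 21626 probe sets were lower. Salivary Enpep lay near the floor (median 4.37, lowest 3.74 over 30 arrays), so a salivary fall could be partly hidden there. The call therefore does not settle whether the glands differ. Glycam1 was called too, but no salivary effect could be measured below the floor, so that call restates the lacrimal fall. The labels do not give the sex of the mice or whether both glands came from the same mice, and the fit took the 61 arrays as independent. Without MOPC-21 replicate 3 of the lacrimal gland the Enpep difference was -1.13 (adjusted p = 0.081). For Vcam1 (-1.06, adjusted p = 0.20), Icam1 (-1.14, adjusted p = 0.11) and Cd34 (-0.87, adjusted p = 0.17) a difference between the glands was not shown. Without LTBR-Ig replicate 1 of the lacrimal gland the Icam1 difference was called (-1.38, adjusted p = 0.038).

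The glands also differed in untreated mice. At week 8 Enpep was higher in lacrimal gland by 3.51, an 11.4-fold difference (7.19% of probe sets higher), and Icam1 was at least 3.04-fold lower, counted from the floor (11.6% lower). In salivary gland Icam1 read 5.34, 5.48, 5.62 and 5.97 at week 8 and 4.59, 4.55, 4.58 and 4.64 at week 16, with no overlap. It fell by 1.01 (SE 0.21, adjusted p = 0.00038), just past the fold of 2, where 2.85% of probe sets were lower. The call was lost without replicate 2 of week 16 (-1.0) or replicate 4 of week 8 (-0.89). Enpep differed by -0.97 (adjusted p = 0.0016), and passed the fold without replicate 1 or 4 of week 16 or replicate 3 of week 8 (-1.18 to -1.08). Cd34 read 6.73, 7.11, 6.77 and 7.07 against 6.22, 6.06, 6.03 and 6.27, a difference of -0.77 (adjusted p = 0.00087) without overlap (19.1% of probe sets lay lower so) but under the fold. Endothelial markers moved in the same comparison, with 4 of 13 tested lower and a median of -0.78. The 4, named after their values were seen, were Sox17 (-1.35), Plvap (-1.17), Sox18 (-1.09) and Esam (-1.0). Salivary Amy1 read 4.58 to 5.56 at week 8 and 7.36 to 14.19 at week 16. The part of the endothelial markers and of Amy1 in these differences was not tested.

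The other genes that build or carry L-selectin ligands were listed as a group of 22, of which 15 were tested in lacrimal glands. Which cells of the gland made them was not tested. At week 16 against MOPC-21, 1 of them fell and none rose, where 5.54% of all probe sets were lower, and their median change was 0.44, beside -0.03 over all genes. The one was C1galt1, the galactosyltransferase that starts core 1 O-glycans, which went from a mean of 6.63 to 5.27 (change -1.36, SE 0.37, limma adjusted p = 0.016). In untreated mice from week 8 to week 16, 4 of the 15 rose and 3 fell, where 12.1% of all probe sets rose and 4.49% fell. Named after their values were seen, the former were C1galt1 (2.46), St3gal6 (2.19), Gcnt1 (1.43) and Fut4 (1.37), which build or cap the sugar chains, and the latter were Papss2 (-1.17), which makes the sulfate donor, the endothelial sialomucin Emcn (-1.06) and the sulfotransferase Chst1 (-1.02). Chst4, the sulfotransferase largely confined to HEV, read 2.62 to 2.80 and so lay below the floor on all 31 lacrimal arrays. Madcam1, the mucosal addressin, did so too at 2.39 to 2.83.

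The lymphocyte side of these adhesion steps was read from 10 counter-receptor genes, and 6 of them fell at week 16 against MOPC-21, where 5.54% of all probe sets were lower, with a median of -1.27. They included Ccr7, the chemokine receptor for lymph node entry (-1.86, SE 0.60, adjusted p = 0.029), Itgb7, an integrin chain that pairs to bind MAdCAM-1 and VCAM-1 (-1.64, SE 0.49, adjusted p = 0.021), Itgal, the LFA-1 chain that binds ICAM-1 (-1.44, SE 0.41, adjusted p = 0.018), and its partner Itgb2 (-1.43, SE 0.46, adjusted p = 0.029). Read against the same share, 3 of 7 lymphotoxin pathway genes tested fell, with a median of -1.0: Cxcl13, a B cell chemokine (-2.48, SE 0.65, adjusted p = 0.013), Ltb, the lymphotoxin-beta ligand chain (-1.82, SE 0.53, adjusted p = 0.021), and Nfkb2, whose product acts downstream of the receptor (-1.40, SE 0.28, adjusted p = 0.0054). So did 2 of 11 vascular endothelial markers tested, Icam2 (-1.68, SE 0.45, adjusted p = 0.014) and Pecam1 (-1.37, SE 0.35, adjusted p = 0.012), both also made by leukocytes, and the median of the list was -0.20. The log2 of the summed endothelial level ranged from 9.32 to 9.88 with MOPC-21 and from 8.91 to 9.14 with LTBR-Ig, and its part in the members' changes was not tested. The lacrimal epithelial markers Pax6 and Lpo were not called.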

How the data were processed

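The authors deposited log2 expression values, made by normalizing the probe intensities of all arrays together with GCRMA, which corrects for the GC content of probes (version not given in the sources used here). Names came from the platform annotation, in which 932 probe sets had several symbols and 9211 were not listed. Groups were taken from the labels. Each gland was fitted with 1 mean per group in limma 3.58.1 (R 4.3.3, package data.table, version 1.17.8) with an intensity trend, and contrasts across glands were fitted over all 61 arrays. The floor, the test and the call rule are those given with the results. The floor is a setting, not a measured background. The 9 members were named, each represented by its brightest probe set on average, with up to 4 called genes of each list with the largest week 16 change against MOPC-21, the 5 genes most correlated with Glycam1 and the 3 most correlated with each other member called under treatment. Amy1 and Ptprc were named as exceptions. Members and lists were chosen with earlier results of these data known. No 2 arrays were duplicates, the highest correlation being 0.997. The methods describe lacrimal samples as separate mice; for salivary samples p-values measure the spread between arrays, which may be technical. The test was checked on simulated data. Promoters are from RefSeq (GRCm38.p6), and the form GGNNNTTCC was chosen after the windows were read. Figures were drawn with matplotlib 3.10.9 (Python 3.11.15, pandas 2.3.3). The alternatives were quantile normalization, no filter, a floor of 6, no intensity trend, the mean of a gene's probe sets, only the groups compared, the methods' posterior probability rule (with a prior share of 0.01), the replicate number as a block, leaving out each array, and 2 chosen after seeing the data (arrays with Amy1 above 8 left out, and the leukocyte list's mean as a covariate). Single-array depth does not apply, and precision is limited by the number of arrays.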

Additional observations from a re-analysis of the deposited data

Results flagged for a closer look

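In 66 combinations of a member and a group of 4 arrays, 4 single arrays stood apart from the other 3 of their group. Chance flags about 1 in 20 such combinations, so a few flags arise by chance alone. Chst2 read 4.43 on replicate 1 of LTBR-Ig week 12, where the nearest array read 3.32, and 4.52 on replicate 1 of MOPC-21 week 16, where the nearest also read 3.32. Vcam1 read 9.33 on replicate 4 of MOPC-21 week 12, with the nearest at 8.17. Enpep read 7.21 on replicate 2 of LTBR-Ig week 12, with the nearest at 7.98. All 4 were lacrimal arrays.

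The week 16 effect of LTBR-Ig was tested directly between the lacrimal and salivary glands. Enpep was called, with a log2 difference of -1.26 (limma adjusted p = 0.013). Its salivary values lay near the floor (median 4.37), so a salivary fall could be partly hidden. The same contrast was called for Glycam1 with a fitted value of -4.84. Glycam1 lay below the floor on all 30 salivary arrays and on the LTBR-Ig lacrimal arrays, so no salivary effect could be measured and the fitted value is not a size.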

How the results depend on the processing

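The counts of members called are given under each alternative that moved them by more than 1.5 times. At lacrimal week 16 the 4 members called against MOPC-21 became 1 with the leukocyte list as covariate, 2 under the posterior probability rule and 1 without the arrays with Amy1 above 8. The 3 called against untreated mice became 1, 1 and 0 under the same settings. Icam1 against untreated mice changed sign with the covariate, to 0.0058 (limma adjusted p = 1.0), and the cause was not tested. Glycam1 against untreated mice at week 16 did not pass without the arrays with Amy1 above 8 (-3.72, adjusted p = 0.067). At week 12 the 2 called against MOPC-21 became 1 with only the groups compared and 1 without the arrays with Amy1 above 8, and the 1 called against untreated mice became 2 with the covariate, 0 with only the groups compared, 2 after quantile normalization and 0 without those arrays. The member added in both counts of 2 was Selp, called higher and tested only through the LTBR-Ig week 12 group. The 1 salivary member called between weeks 8 and 16 became 0 under the posterior probability rule, a floor of 6 and quantile normalization. The 2 members called in the contrast between glands became 1 under the posterior rule and 1 without the arrays with Amy1 above 8.

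Leaving out each array in turn gave 1 to 4 members at week 16 against MOPC-21, 1 to 3 against untreated mice, 2 to 3 at week 12 against MOPC-21, 1 to 2 against untreated mice, 3 to 4 for untreated week 16 against week 8, 0 to 2 for salivary week 16 against week 8, 1 to 3 for the difference between glands and 2 to 3 for the glands at week 8. In the week 12 treatment comparisons the added member was Selp, called higher. Glycam1 was called against MOPC-21 under all 10 other alternatives at each week (fitted changes of -4.86 to -3.90 at week 16 and -3.72 to -3.48 at week 12). With the replicate number as a replicate block the counts did not change in any of the 15 comparisons (4 at week 16 against MOPC-21). The arrays were taken to share only a number, since in no comparison with 3 or more pairs did every same-numbered pair correlate above 0.1. LTBR-Ig and MOPC-21 pairs ran from -0.50 to 0.19 at lacrimal week 16 (1 of 4 best with its own number) and from -0.26 to 0.50 at lacrimal week 12 (2 of 4), and the 2 salivary pairs of week 12 gave 0.12 and 0.15 (both best with their own number). Selp at week 12 was called under several alternatives, as given with its values, and was not tested without the arrays with Amy1 above 8. Its place among the genes tested came from the LTBR-Ig week 12 arrays themselves, so these calls are not read as a rise. Fut7 and Sele below the floor, and 2 to 4 arrays a group, limit what could be seen.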
